A study of Mus musculus with 21 samples.

Results

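The Dnmt1 hairpin shDnmt1 was followed in mouse fibroblasts undergoing reprogramming to pluripotency, in 8 of the 21 libraries of the series. The 8 libraries form 4 pairs, each of an shDnmt1 library and a control from the same deposited table. The cells, called SKOM cells after the factors they received, were embryonic fibroblasts of the ICR strain at passage 2, taken from embryos of day 13.5, and they carried retroviral Oct4 (encoded by Pou5f1), Sox2, Klf4 and c-Myc and were harvested on day 5. All 8 libraries share these factors, and the further constructs were also delivered by retrovirus, for 48 hours. In the Vc- pair, shDnmt1 cells in medium without vitamin C were set against cells with the control constructs labelled Flag+shLuc. In the Vc- Tet1CD pair, cells with Tet1CD and shDnmt1 were set against cells with Tet1CD, a construct from the 5-methylcytosine oxidase Tet1 that both libraries carry. The Vc+ pair and the Vc+ Tet1CD pair hold the same combinations in medium with vitamin C. Beside them stand 2 pairs of fibroblasts without the factors (MEFs): shDnmt1 over Flag+shLuc, and shp53 with shDnmt1 over shp53, a second hairpin whose target is Trp53. Each combination was sequenced once and nothing in the labels names separate cultures, so the p-values below measure only the spread between these libraries. The labels do not say whether infected cells were selected, and a library averages cells with and without the hairpin.

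Dnmt1 is the maintenance DNA methyltransferase: after replication it copies CpG methylation from the old strand to the new one, guided by Uhrf1. Cells that lose it lose methylation with division, and germline genes with methylated CpG-rich promoters and imprinted genes are known as sensitive readouts. In reprogramming, fibroblasts turn down mesenchymal genes and turn up epithelial and later pluripotency genes, a course in which DNA methylation is regarded as a barrier.

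The values are whole numbers on an arbitrary scale, normalized by the authors within each table, and their sequencing depth is not known. The median over genes was 180 without vitamin C and 226 with it, and levels are comparable between libraries of a table but not between tables. The cells matched their labels: Pou5f1 was 3005 to 5359 in the 8 libraries and is not listed in the MEF table, and the fibroblast collagen gene Col1a1 was still at 4586 to 7544. Tet1 was 2448 to 3129 in the 4 Tet1CD libraries, against 11 to 54 in the 4 without Tet1CD. The Vc+ Tet1CD pair stood apart: the standard deviation of its log2 ratios over genes was 0.47, against 0.261 in the Vc- pair, 0.291 in the Vc- Tet1CD pair and 0.313 in the Vc+ pair, and 2.84% of its genes differed at least 2-fold, against 0.615% to 1.11% in the other 3. These values are over all genes of each pair's own table. Over the 10711 genes of both SKOM tables the standard deviation was 0.429, against 0.257, 0.291 and 0.248 in the same order.

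Promoters of a pair of genes that were lower and a pair that were higher with shDnmt1 in all 4 SKOM pairs are printed because Dnmt1 acts on CpG sites and these genes differ widely in CpG content. They are the 250 bases before the gene's start from RefSeq (GRCm38.p6), 5′ to 3′ on the strand of the gene, with each CG in capitals. Tgfbr2 (chr9:116175364-116175613, minus strand) holds 12 CG, Irf1 (chr11:53769764-53770013, plus strand) 25, Dmrtc2 (chr7:24869807-24870056, plus strand) 20 and Avil (chr10:127000459-127000708, plus strand) 1. Over the 32851 mouse windows of the same length the median was 6 CG, and 33.5%, 10.7%, 17.9% and 92.1% of windows held at least as many as these 4.
Tgfbr2: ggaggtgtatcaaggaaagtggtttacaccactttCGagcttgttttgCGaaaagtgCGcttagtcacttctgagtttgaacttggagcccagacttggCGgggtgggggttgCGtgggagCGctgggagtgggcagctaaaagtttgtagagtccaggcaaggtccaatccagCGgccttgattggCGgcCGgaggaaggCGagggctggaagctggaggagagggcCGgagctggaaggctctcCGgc
Irf1: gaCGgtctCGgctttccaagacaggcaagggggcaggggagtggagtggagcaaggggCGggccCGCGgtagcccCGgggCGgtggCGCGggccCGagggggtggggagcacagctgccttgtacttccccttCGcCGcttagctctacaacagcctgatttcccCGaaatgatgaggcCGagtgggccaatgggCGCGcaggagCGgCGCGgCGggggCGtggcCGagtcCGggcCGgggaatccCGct
Dmrtc2: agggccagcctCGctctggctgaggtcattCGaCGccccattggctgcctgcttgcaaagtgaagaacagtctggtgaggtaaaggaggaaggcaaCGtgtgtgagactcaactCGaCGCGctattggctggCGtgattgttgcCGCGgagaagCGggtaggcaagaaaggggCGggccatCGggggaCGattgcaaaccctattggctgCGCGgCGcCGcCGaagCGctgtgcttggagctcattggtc
Avil: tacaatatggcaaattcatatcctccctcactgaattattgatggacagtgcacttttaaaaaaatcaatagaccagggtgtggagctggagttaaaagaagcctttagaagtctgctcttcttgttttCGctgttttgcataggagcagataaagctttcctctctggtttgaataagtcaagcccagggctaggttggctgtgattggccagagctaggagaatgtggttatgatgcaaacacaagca

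The Dnmt1 transcript was lower with the hairpin in every pair. Dnmt1 (ENSMUSG00000004099, mm10 chromosome 9, 20907206 to 20959888, minus strand) had values of 527, 437, 1154 and 655 in the shDnmt1 libraries of the Vc-, Vc- Tet1CD, Vc+ and Vc+ Tet1CD pairs, against 984, 967, 2346 and 1080 in their controls. The hairpin libraries thus held 53.6%, 45.2%, 49.2% and 60.6% of the control value. The 4-pair fit gave a log2 fold change of -0.94 ± 0.086 (SE) on log2(value + 5), with an unadjusted p of 5.84e-06 and an adjusted p of 0.0625 (limma, Benjamini-Hochberg), the smallest of all genes and just above the threshold of 0.05. Without the Vc+ Tet1CD pair it was -1.02 ± 0.071 with an adjusted p of 0.0244. In MEFs Dnmt1 was 208 in the shDnmt1 library, against 957 in its control, and 410 in the shp53 and shDnmt1 library, against 1622 with shp53, so that 21.7% and 25.3% of the control value were left. The size of the Dnmt1 difference did not pass a test of change with vitamin C (log2 difference of the effects 0.15 ± 0.183, adjusted p = 1, limma) or with Tet1CD (0.03 ± 0.186, adjusted p = 0.982, limma). Without the Vc+ Tet1CD pair these values were -0.005 ± 0.156 and -0.179 ± 0.145.

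**Figure D1:**
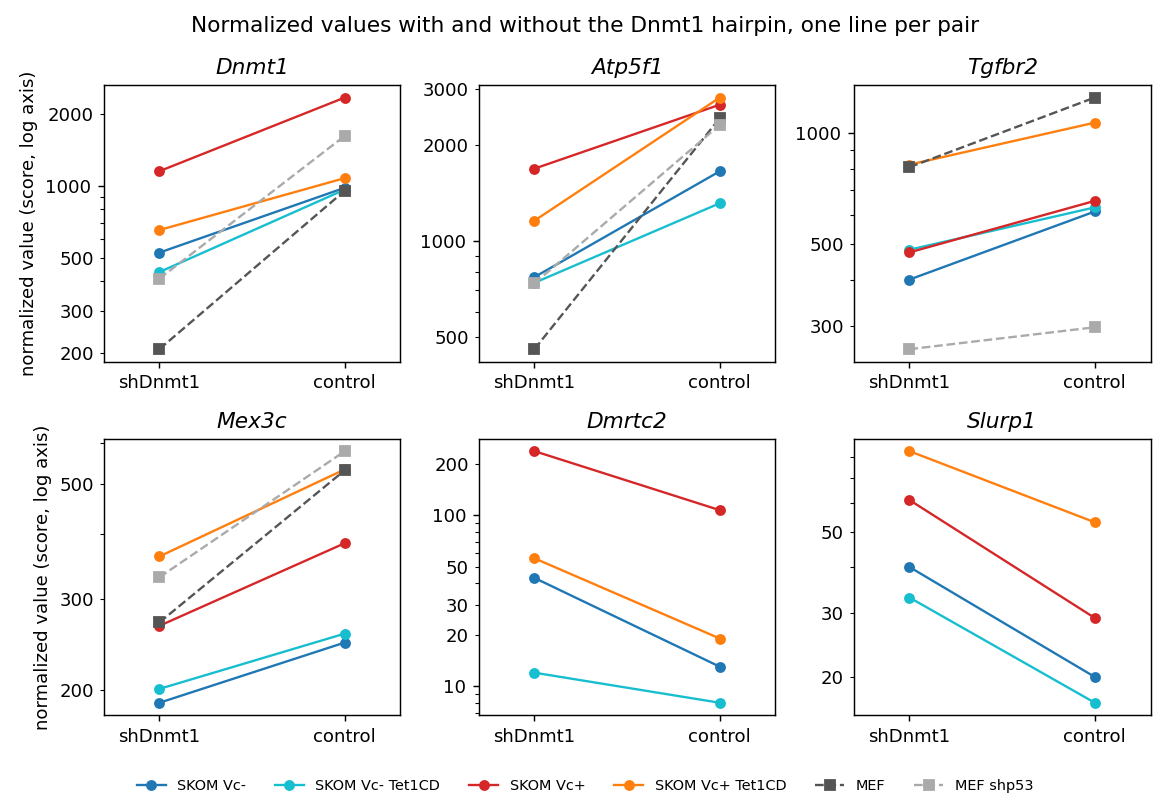
Normalized value (score, log axis) of 6 genes in the shDnmt1 library and the control of each pair, one line per pair, with solid lines for SKOM cells and dashed lines for MEFs. Dnmt1, Atp5f1, Tgfbr2 and Mex3c are lower in the shDnmt1 library of all pairs shown, and Dmrtc2 and Slurp1, which the MEF table does not list, are higher in the 4 SKOM pairs, with Dmrtc2 at 237 against 107 in the Vc+ pair.

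No gene passed the test, Dnmt1 included. Of 10711 genes in both SKOM tables, 0 had an adjusted p under 0.05 in the 4-pair limma fit in either direction (0%), and 470 (4.39%) had an unadjusted p under 0.05, of which 231 were higher (2.16%) and 239 lower (2.23%). The fits to the Vc- libraries (10720 genes) and the Vc+ libraries (12018 genes) called 0 genes as well, with 467 (4.36%) and 239 (1.99%) at an unadjusted p under 0.05. Without vitamin C 2.13% were higher and 2.23% lower at that p, and with it 1.01% were higher and 0.982% lower. The log2 ratios of the 4 pairs had little in common across the 10711 genes: Pearson's r between pairs ran from -0.11 to 0.11, a description over genes that are not independent of each other. Over all genes of each table, the spread of the log2 ratios was 0.261 and 0.313 (SD) for shDnmt1 in the Vc- and Vc+ pairs. It was 0.221 and 0.263 for the library labelled Dnmt1 over the same controls. Dnmt1 itself was 1001 in that library without vitamin C, against 984, and 2381 with vitamin C, against 2346.

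**Figure D2:**
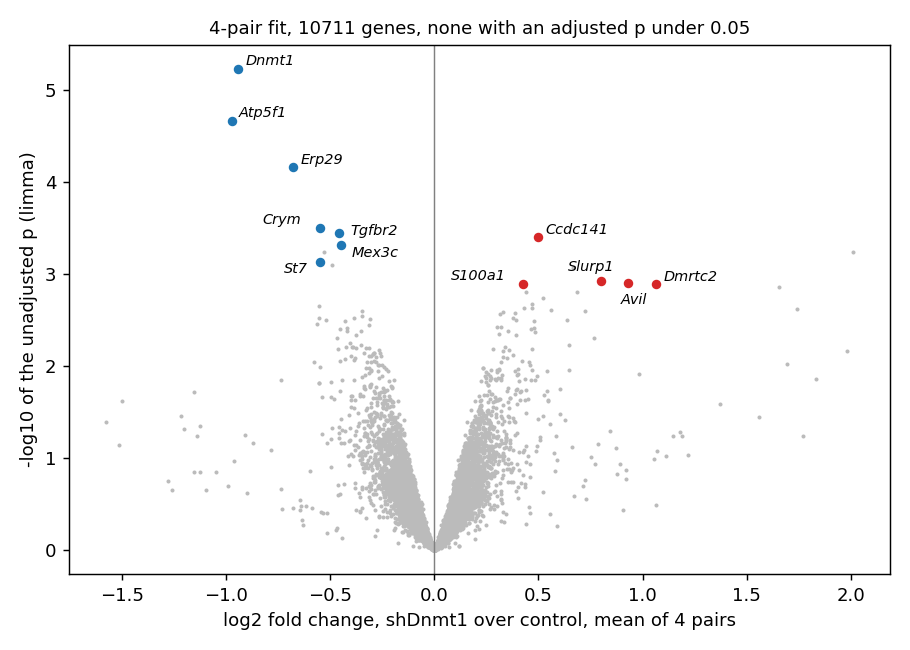
Log2 fold change of shDnmt1 over control (x axis, mean of 4 pairs) and the negative decimal logarithm of the unadjusted limma p (y axis) for the 10711 genes tested, with named genes in blue where lower and red where higher. Dnmt1, Atp5f1 and Erp29 stand above the other genes, and no gene has an adjusted p under 0.05.

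Genes were next followed by direction. In all 4 pairs 562 genes (5.25%) were higher with shDnmt1 and 642 (5.99%) lower, and the count dropped to 16 higher (0.149%) and 12 lower (0.112%) when each pair had to differ by at least 0.3 on the log2 scale. These 28 were chosen by their values, so their ratios are a description.

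The 12 lower genes were Dnmt1, Atp5f1, Erp29, Tgfbr2, Irf1, Crym, Mex3c, St7, Wdpcp, Cd82, Mrps24 and Prdx3. The smallest p after Dnmt1 belonged to Atp5f1, subunit b of the mitochondrial ATP synthase, with 770, 739, 1690 and 1159 in the shDnmt1 libraries, against 1659, 1316, 2687 and 2830 in the controls, in the order of pairs used for Dnmt1. Erp29, a chaperone of the endoplasmic reticulum, had 187, 224, 304 and 307 with shDnmt1, against 355, 332, 448 and 498 in the controls. The fits gave -0.97 ± 0.106 for Atp5f1 (adjusted p = 0.116, limma) and -0.68 ± 0.087 for Erp29 (adjusted p = 0.246, limma). Both passed when all 14 SKOM libraries were fitted additively, with adjusted p-values of 0.00939 and 0.0133 (limma). The estimates stayed at -0.971 and -0.676, because the other 6 libraries have terms of their own. They added to the estimate of the residual spread only, so this is no further evidence on the hairpin.

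Tgfbr2, the type II receptor of TGF-beta, which binds the ligand and starts the signal that maintains mesenchymal genes, had 400, 482, 474 and 820 in the shDnmt1 libraries, against 612, 628, 654 and 1066 in the controls. The difference was of similar size in all 4 pairs, from -0.61 in the Vc- pair to -0.38 in both Tet1CD pairs, and the fit gave -0.46 ± 0.075 (adjusted p = 0.681, limma). In MEFs Tgfbr2 was 807 against 1247, and 259 against 297 with shp53. The library labelled Dnmt1 lay between: against the same controls its Tgfbr2 values were 504, 606, 546 and 1008.

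Irf1, a transcription factor of interferon responses, was low throughout, with 27, 24, 54 and 77 in the shDnmt1 libraries and 39, 34, 77 and 106 in the controls. Crym, a cytosolic thyroid hormone-binding protein, had 219, 159, 205 and 140 with shDnmt1, against 305, 205, 327 and 230. Mex3c, an RNA-binding ubiquitin ligase, had 189, 201, 266 and 362 with shDnmt1, against 247, 257, 384 and 533 in the controls. It was also lower in MEFs, with 270 against 531, and 330 against 578 with shp53.

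Prdx3, a mitochondrial peroxiredoxin, and Mrps24, a protein of the small mitochondrial ribosomal subunit, were the other members with a mitochondrial product. Prdx3 had 175, 154, 279 and 180 with shDnmt1, against 246, 192, 359 and 393 in the controls, and its log2 ratio was -1.11 in the Vc+ Tet1CD pair and -0.48 to -0.31 in the other 3. Mrps24 had 44, 36, 77 and 65, against 70, 65, 98 and 94 in the controls. The tetraspanin gene Cd82 was lower by 0.33 to 0.67 on the log2 scale in SKOM cells but higher in MEFs, with 89 against 62, and 91 against 41 with shp53.

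Of the 12 genes, 11 are in the MEF table, and 9 of these were lower in both MEF pairs, where 28.9% of the 10238 genes of all 3 tables were. Dnmt1, Atp5f1, Erp29 and Mex3c passed -0.58 in both MEF pairs, a mark that 0.789% of the 11152 MEF genes met. The MEF libraries took no part in choosing the 12. With Atp5f1, Erp29 and Dnmt1 as members, this count carries genes already known from these data to be lower with the hairpin.

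The 16 higher genes were Dmrtc2, Avil, Slurp1, S100a1, Ccdc141, Mdga1, Cul9, Ndst3, Etohi1, Cntnap5a, Dgkb, 2300002M23Rik and 4 predicted genes or genes without a unique symbol. Dmrtc2, a DM-domain gene needed for meiosis in the mouse testis, had 43, 12, 237 and 56 in the shDnmt1 libraries, against 13, 8, 107 and 19 in the controls. Avil, an actin-binding protein of the villin family, had 203, 417, 694 and 1832 with shDnmt1, against 65, 299, 295 and 1338. Slurp1, a secreted protein of keratinocytes, had 40, 33, 61 and 83 with shDnmt1, against 20, 17, 29 and 53 in the controls. All 3 were higher in each pair, and for Avil the gap was wider in the pairs without Tet1CD. The fits gave 1.06 ± 0.216 for Dmrtc2, 0.93 ± 0.187 for Avil and 0.80 ± 0.16 for Slurp1, with an adjusted p of 0.852 for each (limma).

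S100a1, a calcium-binding protein, had 120, 167, 178 and 230 with shDnmt1, against 94, 109, 132 and 179 in the controls, and in MEFs 206 against 149, and 151 against 48 with shp53. Ccdc141, a coiled-coil protein, had 309, 249, 563 and 407 with shDnmt1, against 207, 187, 439 and 255. Its fit, 0.50 ± 0.084, had the smallest unadjusted p of the 16 (0.000396, adjusted p = 0.681, limma). Of the 16 genes, 4 have a value of 2 or less in some library. For the neurexin-family gene Cntnap5a, listed at 0 in both Tet1CD controls and at 22 and 79 with shDnmt1, no fold is given for those pairs, and without Tet1CD it was 51 against 27 and 108 against 69. Of the 16, 8 are in the MEF table, 5 were higher in both MEF pairs, where 29.9% of the genes of all 3 tables were, and none passed 0.58 in both, as 0.699% of the MEF genes did.

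**Figure D3:**
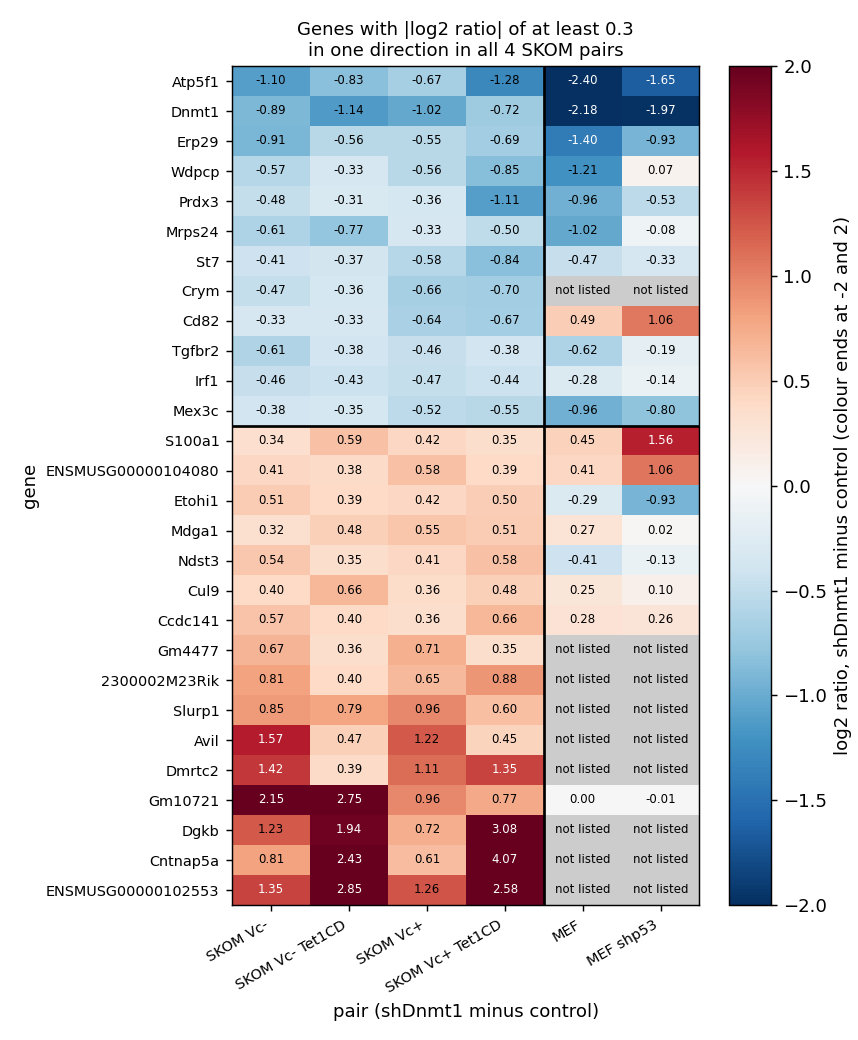
Log2 ratio of the shDnmt1 library over its control for the 28 genes that differed by at least 0.3 in one direction in all 4 SKOM pairs (columns to the left of the line), with the 2 MEF pairs to the right of it, blue for lower and red for higher. Atp5f1, Dnmt1, Erp29 and Mex3c are lower in all 6 columns, and grey cells mark the 9 genes that have no MEF value.

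The same controls were also compared with the library labelled Dnmt1, which has the construct combination of each pair with Dnmt1 in place of the hairpin. These comparisons share the control library. The 12 and 16 genes were chosen by their shDnmt1 ratios to these controls, and the library labelled Dnmt1 took no part in the choice. Larger medians with shDnmt1 follow from that choice, so the gap between the libraries is a description. For the 12 lower genes the median log2 ratio was -0.52, -0.37, -0.56 and -0.69 with shDnmt1, and -0.02, -0.05, 0.01 and -0.07 for the library labelled Dnmt1. For the 16 higher genes the medians were 0.74, 0.48, 0.63 and 0.59 with shDnmt1, and 0.19, -0.04, 0.15 and 0.12 for the library labelled Dnmt1. Slurp1 was at 16, 15, 29 and 53 there, at or below its controls in each pair, while Dmrtc2 was at 21, 4, 177 and 33, above its control in 3 of 4 pairs.

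In these bulk samples a change in the share of a cell type and a change in RNA per cell cannot be told apart, which holds for all gene lists below. Epithelial junction and keratin genes were higher with shDnmt1 for 13 of 15 listed members in the Vc- pair and for 18 of 18 in the Vc+ pair, where 47.8% and 47.9% of all genes were higher, with list medians of 0.298 and 0.483 on the log2 scale. With Tet1CD 6 of 15 and 9 of 18 were higher, with medians of -0.078 and 0.035, beside 48.4% and 48% of all genes. In both pairs without Tet1CD 13 of 15 members were higher, where 24.1% of all genes were, and in both pairs with it 3 of 15, where 22.3% were. No member passed the 4-pair test (smallest adjusted p = 0.959, limma). At an unadjusted p under 0.05 2 of 15 were higher and 0 lower, where 2.16% and 2.23% of all genes were.

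Krt8, a keratin of simple epithelia, had 84 and 439 in the shDnmt1 libraries of the Vc- and Vc+ pairs, against 59 and 247 in the controls, and 71 and 221 in those with Tet1CD, against 81 and 231. Epcam, an epithelial adhesion molecule, had 45 and 235 with shDnmt1 without Tet1CD, against 34 and 140, and 30 and 60 with Tet1CD, against 33 and 44. Cdh1, which encodes E-cadherin, had 118 and 296 with shDnmt1 without Tet1CD, against 98 and 193, and 46 and 125 with Tet1CD, against 79 and 115. Dsp and Tjp1, of desmosomes and tight junctions, were higher in all 4 pairs, Dsp with 1690, 1890, 3018 and 3018, against 1076, 1862, 2418 and 2772. The test of the difference between pairs with and without Tet1CD gave -0.77 ± 0.194 for Krt8 (unadjusted p = 0.00577, adjusted p = 0.926, limma), and no list member passed it.

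Fibroblast and mesenchymal genes were lower for 27 of 45 members in the Vc- pair and 37 of 46 in the Vc+ pair, where 48.7% and 49.1% of all genes were lower, with medians of -0.066 and -0.199. With Tet1CD 8 of 45 and 26 of 46 were lower, beside 48.3% and 50.2% of all genes, with medians of 0.069 and -0.059. In both pairs without Tet1CD 22 of 45 were lower, where 25.6% of all genes were, and in both pairs with it 5 of 45 were lower, where 23.2% of all genes were. Col3a1, a fibrillar collagen gene, had 1496 and 1279 in the shDnmt1 libraries without Tet1CD, against 1999 and 2082, and 1939 and 4301 with Tet1CD, against 1496 and 5184. Cdh11, a mesenchymal cadherin, had 1491, 1465, 930 and 1317 with shDnmt1 in the 4 pairs, against 1927, 1525, 1140 and 1853, and its fit gave -0.30 ± 0.085 (adjusted p = 0.959, limma). Tgfbr2, described above, is a member and had the smallest p of the list.

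Pluripotency genes were higher for 11 of 11 listed members in the Vc- pair and 15 of 17 in the Vc+ pair, with medians of 0.202 and 0.198, and for 2 of 11 and 11 of 17 with Tet1CD, with medians of -0.109 and 0.115. Over all genes 47.8% and 47.9% were higher in the pairs without Tet1CD, and 48.4% and 48% in those with it. Epcam and Cdh1 are also members of the epithelial list. Of the 36 genes of the list, 11 have values without vitamin C and 17 with it. Jarid2, a partner of Polycomb complex PRC2, had 161, 147, 323 and 196 with shDnmt1, against 112, 133, 302 and 170, and L1td1, an RNA-binding protein of pluripotent cells, had 564, 677, 1678 and 855, against 429, 695, 1520 and 620. Gdf3, a TGF-beta family ligand listed with vitamin C, had 62 and 129 with shDnmt1, against 19 and 101 in the controls.

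The library labelled Dnmt1 was set against the same controls. In the Vc- and Vc+ settings it was higher for 5224 of 10723 and 5882 of 12021 genes, and lower for 5056 and 5740. With Tet1CD it was higher for 5248 and 5630 of these genes, and lower for 5176 and 6040. Without Tet1CD its Dnmt1 value was within 0.03 of the control on the log2 scale. Its epithelial members were higher for 11 of 15 and 13 of 18 in the settings of the Vc- and Vc+ pairs, with medians of 0.146 and 0.177, its mesenchymal members were lower for 39 of 45 and 45 of 46, with medians of -0.18 and -0.309, and its pluripotency members were higher for 9 of 11 and 14 of 17. In the setting of the Vc- Tet1CD pair its epithelial members were higher for 3 of 15 and its pluripotency members for 2 of 11, and its Dnmt1 was itself lower, with 778 against 967. In the setting of the Vc+ Tet1CD pair the medians differed in sign: epithelial members were higher for 9 of 18 with shDnmt1 (median 0.035) and for 5 of 18 in the library labelled Dnmt1 (-0.05), and pluripotency members for 11 of 17 with shDnmt1 (0.115) and for 5 of 17 in the library labelled Dnmt1 (-0.036). What these libraries share is the control, and the part of the hairpin in these list differences was not tested apart from it.

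**Figure D4:**
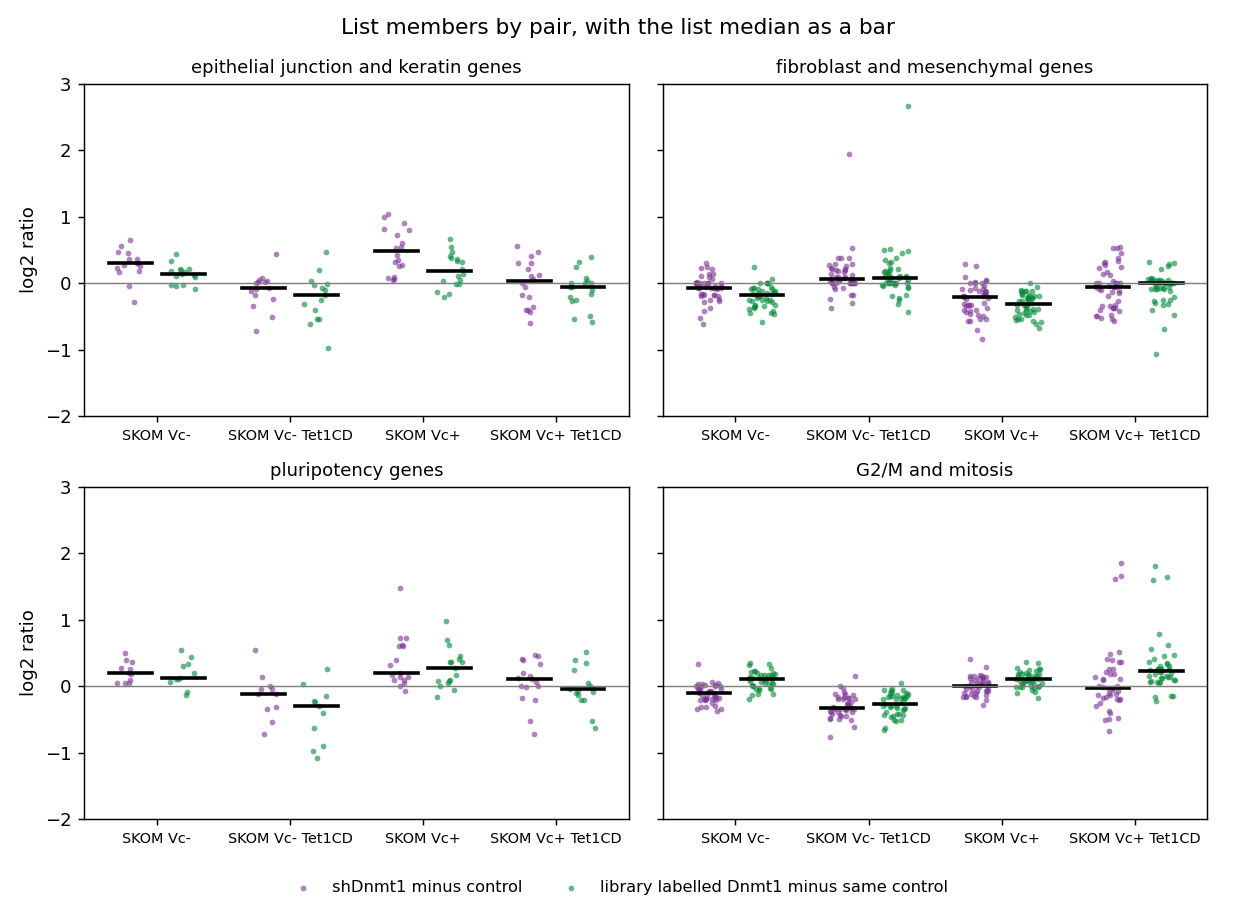
Log2 ratio (y axis) of each listed member of 4 gene lists in the 4 SKOM pairs, for shDnmt1 over control (purple, left) and for the library labelled Dnmt1 over the same control (green, right), with the list median as a black bar. The epithelial medians are 0.298 and 0.483 in the pairs without Tet1CD and -0.078 and 0.035 in those with it, and the green epithelial medians lie on the same side of 0 except in the Vc+ Tet1CD pair.

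Of the delivered factors, Pou5f1 was 3688, 3005, 5359 and 3076 with shDnmt1, against 3122, 3884, 4772 and 3259 in the controls, Sox2 was 2697, 2375, 4282 and 2379, against 2540, 2627, 3885 and 2500, and Klf4 was 5732, 4822, 9344 and 4141, against 4210, 5059, 7995 and 3886. All 3 were higher with shDnmt1 in the pairs without Tet1CD and lower in the Vc- Tet1CD pair. Myc was at the same value in both libraries of the first 3 pairs (19681, 10782 and 18104) and 7995, against 6109, in the Vc+ Tet1CD pair. The value 19681 is the highest of its table, and the libraries of a SKOM table have the same median and nearly the same total. Equal values can thus mean equal rank and are not read as equal amounts of Myc RNA. No factor had an unadjusted p under 0.05 in the 4-pair fit.

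Of the genes that write and maintain DNA methylation, 15 are in both tables. Dnmt1 was the 1 of them that was lower in all 4 pairs, where 5.99% of all genes were. Uhrf1, its guide, had 667, 478, 1562 and 655 with shDnmt1, against 685, 603, 1411 and 560. The de novo methyltransferase gene Dnmt3a had 317, 283, 474 and 420, against 279, 258, 500 and 378, and Zfp57, a zinc finger protein that protects imprinted methylation, had 249, 213, 376 and 362, against 172, 228, 287 and 302. Of 14 demethylation and repair genes 1 was higher and 3 lower in all 4 pairs, where 5.25% and 5.99% of all genes were. Tet2 had 304, 205, 640 and 317 with shDnmt1, against 207, 227, 545 and 178. Tdg, the glycosylase that removes oxidised methylcytosine, had 500, 376, 781 and 430, against 576, 466, 801 and 500. Tet1 was lower with shDnmt1, with log2 fold changes from -0.358 to -0.262 when each pair was left out in turn. The part of the Tet1CD transcript in this was not tested. None of these lists held a gene past the threshold. The methyl-CpG readers had no member with an unadjusted p under 0.05 among 12, where 4.39% of all genes had one.

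Germline genes that promoter methylation keeps silent were mostly not listed. Of 54 such genes 2 are in the Vc- table and 14 in the Vc+ table, so few members have values. Dazl, an RNA-binding protein of germ cells, was 2 with shDnmt1 in the Vc+ pair, against 1, and 447 in the Vc+ Tet1CD pair, against 337. The homeobox gene Rhox5 was 6 and 83 with shDnmt1 in these pairs, against 0 and 53. Taf7l was 3 and 68 with shDnmt1, against 0 and 58, and Tex19.1 was 2 and 140, against 0 and 129. These 4 were thus high with Tet1CD alone as well. Stk31, a kinase of germ cells, differed from them: it was 6 in both libraries of the Vc+ pair and 98 in the Tet1CD and shDnmt1 library, against 7 with Tet1CD. Stk31 was also 61 in the library labelled Dnmt1 with Tet1CD. Of the libraries given here, Stk31 reached 32 only where it was 98 and 61. It is thus listed through the libraries in which it is high, and its difference from the Tet1CD control is a description. In the Vc+ Tet1CD pair 9 of the 14 listed members were higher with shDnmt1, with a median of 0.211, and 2 of 14 in the library labelled Dnmt1 over the same control, with a median of -0.402, where 48% of all genes were higher with shDnmt1. In the library labelled Dnmt1 5630 of 12021 genes were higher. A gene is listed where it reaches 32 in 2 or more libraries, which the members named here did not do in the Vc+ pair, so no count is read from that pair. They reached 32 in libraries with Tet1CD. The counts of the Vc+ Tet1CD pair therefore describe members listed through such libraries and are no result about germline genes.

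Of 47 imprinted genes measured in both media, 8 were higher and 2 lower in all 4 pairs, where 5.25% and 5.99% of all genes were, and 6 were higher and 2 lower at an unadjusted p under 0.05, where 2.16% and 2.23% of all genes were. Herc3 had 362, 307, 369 and 227 with shDnmt1, against 278, 247, 295 and 189. Peg10, a gene derived from a retrotransposon and expressed from the paternal allele, had 286, 265, 340 and 660, against 227, 202, 289 and 549. The log2 fold changes were 0.31 ± 0.073 for Herc3 and 0.30 ± 0.073 for Peg10 (adjusted p = 0.852 and 0.857, limma). Zdbf2 was higher by 0.20 to 0.93 on the log2 scale. H19, a noncoding RNA of the maternal allele, was lower in the first 3 pairs, with 783, 526 and 958 against 1086, 762 and 1732. It was higher in the Vc+ Tet1CD pair, with 1000 against 761. The library labelled Dnmt1 differed from these controls in the same directions, with H19 at 933, 659, 1098 and 1042. Igf2, its neighbour, was 1076, 1111, 893 and 1693, against 1187, 1003, 1054 and 1366, and allele-specific expression was not analysed here.

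Cell-cycle genes differed by pair. In the Vc-, Vc- Tet1CD, Vc+ and Vc+ Tet1CD pairs 47.8%, 48.4%, 47.9% and 48% of all genes were higher with shDnmt1. Over all MEF genes, 49.9% and 49% of genes were higher and 47.3% and 48.9% lower in the pair over Flag+shLuc and the pair over shp53, and 29.8% were higher and 28.6% lower in both. G2/M and mitosis genes were higher for 9, 1, 21 and 19 of 42 members, with medians of -0.097, -0.322, 0.004 and -0.02, and lower in both MEF pairs, for 42 and 32 of 42, with medians of -0.565 and -0.155. The library labelled Dnmt1 with Tet1CD, against the same Vc- Tet1CD control, also had 1 of 42 higher, with a median of -0.259. In the settings of the Vc-, Vc+ and Vc+ Tet1CD pairs the library labelled Dnmt1 had 32, 32 and 38 of 42 higher, and in MEFs 11 of 42. Of all genes it had 5224 of 10723, 5882 of 12021, 5630 of 12021 and 5375 of 11152 higher in these settings. In the Vc- Tet1CD setting 5248 of 10723 genes were higher in it. Kif23, a kinesin of the midzone, had 240, 191, 558 and 243 with shDnmt1, against 304, 216, 627 and 275, and in MEFs 238 against 368, and 718 against 790 with shp53. Rrm2, the ribonucleotide reductase subunit of S phase, had 851, 701, 1695 and 1072, against 1159, 943, 1860 and 1213, and in MEFs 602 against 1167, and 1291 against 2112 with shp53. Rrm2 had a log2 fold change of -0.295 ± 0.082 in SKOM cells (adjusted p = 0.959, limma) and was lower in all 6 pairs. Its list, G1/S and DNA replication genes, was higher for 16, 10, 28 and 30 of 49 members in the SKOM pairs, in the order above. The medians were -0.089, -0.178, 0.037 and 0.021. In MEFs 3 and 11 of 48 members were higher, with medians of -0.35 and -0.124. With vitamin C most members of this list were thus higher, while Rrm2 was lower. The library labelled Dnmt1 had 40, 12, 39 and 36 of 49 higher, and in MEFs 13 of 48.

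Targets of p53 were lower with shDnmt1 for 26, 28, 30 and 37 of 45, 45, 48 and 48 members, with medians of -0.033, -0.059, -0.028 and -0.264, and 6 of 45 were lower in all 4 pairs with none higher. Over all genes 48.7%, 48.3%, 49.1% and 50.2% were lower in these pairs and 5.99% in all 4. Pltp, a phospholipid transfer protein, had 129, 95, 123 and 149 with shDnmt1, against 145, 116, 176 and 255, and Rrm2b, a ribonucleotide reductase subunit induced by p53, had 76, 86, 97 and 139, against 99, 94, 118 and 171. Interferon-stimulated genes were higher for 19 and 21 of 35 without vitamin C, with medians of 0.047 and 0.037, and for 28 and 39 of 52 with it, with medians of 0.018 and 0.206, where 47.8% to 48.4% of all genes were higher. The sensor gene Ifih1 had 37, 64, 82 and 279 with shDnmt1, against 30, 50, 76 and 223. Samd9l was 466 in the Vc+ Tet1CD pair, against 176, and 101 in both libraries of the Vc+ pair. In the library labelled Dnmt1 of the Vc+ Tet1CD setting Samd9l was 337. There 23 of 52 interferon-stimulated genes were higher, with a median of -0.014, where 5630 of 12021 genes were. In MEFs 3 of 44 interferon-stimulated genes were higher with shDnmt1, with a median of -0.61, and none of 44 in the library labelled Dnmt1 against the same control, with a median of -0.72. In the MEF pair with shp53 the direction was the opposite, with 31 of 44 higher and a median of 0.211. Of all 11152 MEF genes, 5564 were higher with shDnmt1, 5375 in the library labelled Dnmt1 and 5470 in the pair with shp53.

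Several large differences of the Vc+ Tet1CD pair were also found between the library labelled Dnmt1 and that Tet1CD control. Atrx, a chromatin remodeller, was 2554 with shDnmt1 and 2425 in the library labelled Dnmt1, against 950 in the control, and 2894 against 2955 in the Vc+ pair. Mki67, a marker of cycling cells, was 3134 with shDnmt1, against 988 in that control, a log2 ratio of 1.66, beside 1.64 for the library labelled Dnmt1. Cenpe had log2 ratios of 1.62 and 1.59 in the same way. In the Vc+ pair Mki67 was 5174 with shDnmt1, against 4590.

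Markers of other cell types were sparse. Macrophage and leukocyte markers are listed for 4 of 16 genes without vitamin C and 5 of 16 with it. Their summed values were 400, 735, 493 and 2449 with shDnmt1, against 302, 727, 445 and 3250 in the controls. The sum was higher in 3 pairs and lower in the Vc+ Tet1CD pair. In the Vc- Tet1CD pair the sums were close, and 2 of 4 members were higher, with a median log2 ratio of -0.038, where 48.4% of all genes were higher. Cd68, Itgam, Laptm5 and Ptprc are the 4 listed in both tables. In MEFs 7 of 7 were higher in the first pair and 7 of 7 lower in the second. Endothelial markers (3 of 11 listed) summed to 643, 756, 966 and 1676 with shDnmt1, against 614, 771, 989 and 1873. Neural and glial markers (6 or 7 of 14 listed) summed to 6322, 6776, 8672 and 9234, against 6283, 6577, 8232 and 8986, and skeletal muscle markers (2 or 3 of 11 listed) to 83, 96, 111 and 353, against 86, 89, 120 and 378. Their part in the gene differences above was not tested.

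Whether the hairpin effect differed between media or with Tet1CD was tested over the 10711 genes. Neither test called a gene (0%): the vitamin C interaction had a smallest adjusted p of 1 and 188 genes (1.76%) at an unadjusted p under 0.05, and the Tet1CD interaction a smallest adjusted p of 0.926 and 452 genes (4.22%) (limma). At that p 0.859% of genes had a higher and 0.896% a lower hairpin effect with vitamin C, and 2.14% a higher and 2.08% a lower one with Tet1CD. The smallest p-values of the vitamin C interaction included Krt6a, a keratin of stratified epithelia, with 87 and 99 with shDnmt1 without vitamin C, against 38 and 49, and 84 and 412 with it, against 73 and 456. Flna, the actin crosslinker filamin A, had 6310 and 7021 without vitamin C, against 6311 and 6565, and 6402 and 7069 with it, against 9344 and 9344. Leaving out the Vc- Tet1CD pair gave 41 higher and 18 lower genes for the Tet1CD interaction, with 1 residual degree of freedom. The smallest p-values of the Tet1CD interaction over all 4 pairs included Avil (-0.93 ± 0.179, adjusted p = 0.926, limma). Fetub, a secreted protease inhibitor, had 136 and 655 with shDnmt1 without Tet1CD, against 80 and 389, and 157 and 686 with Tet1CD, against 178 and 646. Wdr17 was listed at 0 in both Tet1CD and shDnmt1 libraries, against 31 and 52, and was 29 and 36 without Tet1CD, against 32 and 31. In the fit to the Vc+ libraries Spock3, a secreted proteoglycan listed only in the Vc+ table of the SKOM tables, had the smallest p, with 64 and 72 with shDnmt1, against 12 and 18 (1.88 ± 0.307, adjusted p = 1, limma), and it was not higher in MEFs, with 62 against 88, and 68 against 72 with shp53.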

How the data were processed

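Per the labels' protocols, Trizol was used to isolate RNA and a TruSeq kit to build the libraries. Bowtie, RSEM and mm10 are named in the submitters' processing notes, without versions. The authors deposited a whole-number score per gene, normalized separately in each of 3 tables. Library totals ran from 4476522 to 4478695 without vitamin C and from 6611237 to 6614709 with it, with equal medians within each of these tables. Equal values in 2 libraries can thus mean equal rank rather than equal amounts. The way it was normalized, the strand setting and the filter on genes: not given in the sources used here. Genes overlapping on opposite strands and near-identical gene copies are therefore uncertain. Depth is unknown and a gene at 0 is called listed at 0. Each listed gene reaches 32 in 2 or more libraries of its table.

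Values were transformed to log2(value + 5), which understates changes of low genes. Genes with a mean of at least 10 were fitted with limma 3.58.1 (empirical Bayes with intensity trend) in R 4.3.3, with the pair as a block and Benjamini-Hochberg adjustment at 0.05. The blocks are the construct and medium combinations, not replicates. The 4-pair fit had 3 residual degrees of freedom, the interactions 2 and the single-table fits 1. MEF ratios have no test. The code was tested on simulated data.

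The members and the 23 gene lists were chosen with earlier results of these data known. Genes were named as the targeted gene and the factors, and, since no gene passed, the 4 smallest p-values of a fit and up to 2 per list. The 28 genes with at least 0.3 in every pair, and Krt8, Cdh1, Dazl, Taf7l, Tex19.1, Igf2 and Uhrf1, were chosen after their values were seen. A comparison of promoter CpG counts between gene sets was void, because 79.4% of the genes tested had a RefSeq window, below the minimum of 80%.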

Additional observations from a re-analysis of the deposited data

Results flagged for a closer look

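Against the other 3 pairs, the Vc+ Tet1CD pair stood apart in the median log2 ratio of 3 lists over genes of both tables: 0.137 for methyl-CpG readers, -0.249 for p53 targets and -0.16 for neural and glial markers. Chance sets a value apart in about 1 in 20 groups of 4. This is also the pair with the widest spread of ratios, 0.47 (SD) over the genes of its own table. Many lists and genes were searched in this way.

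In 4 lists the pairs of one setting lay on one side of 0 and those of the other setting on the other side, and the difference was not tested. Many lists were searched for both settings, and some such splits of 4 signs arise by chance. The mean of the list medians with vitamin C minus that without was 0.163 for G1/S and DNA replication genes, -0.197 for senescence and secreted factors and -0.132 for endothelial markers. With Tet1CD minus without it was -0.567 for macrophage and leukocyte markers, of which 4 are listed in both tables.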

How the results depend on the processing

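Pseudocount 1 and no intensity trend left the 4-pair counts at 0 higher and 0 lower. Dropping the filter on low values and centring each library on its median say nothing about stability, since the filter removed none of the 10711 genes and the libraries of a table have the same median. Without the pair as a replicate block, with vitamin C and Tet1CD as additive terms, there were also 0 higher and 0 lower genes, and Dnmt1 was -0.942; the block thus changed no call. With all 14 SKOM libraries 2 genes were lower, Atp5f1 (-0.971, adjusted p = 0.00939) and Erp29 (-0.676, adjusted p = 0.0133, limma). That fit takes the hairpin effect from the same 4 pairs, and the other 6 libraries add only to the estimate of the residual spread. Leaving out each pair gave 0 to 2 lower genes and Dnmt1 values from -1.017 to -0.877. Without the Vc+ Tet1CD pair 2 genes were lower, Dnmt1 (adjusted p = 0.0244) and Gm5641 (-0.903, adjusted p = 0.0286, limma). The Tet1CD interaction ran from 0 to 41 higher and 0 to 18 lower genes, the highest counts without the Vc- Tet1CD pair and with 1 residual degree of freedom. The Dnmt1 effect ran from -0.005 to 0.299 by vitamin C, and by Tet1CD from -0.179 to 0.24, with -0.032 without the Vc+ pair. Among single genes the sign turned for Emcn (-0.142 to 0.013), Cd68 (-0.02 to 0.229), Des (-0.036 to 0.029, with 0.015 without the Vc+ pair) and Sycp1 (-0.014 to 0.102). The cause was not tested. The single-table fits have no residual degrees of freedom without a pair. Depth is unknown, so no counting error can be given.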

Other observations

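Some of the lists that belong in no comparison above were near the share of all genes, and others were not. Of all genes 47.8%, 48.4%, 47.9% and 48% were higher in the Vc-, Vc- Tet1CD, Vc+ and Vc+ Tet1CD pairs. The share ran from 16.7% to 73.3% for barrier genes and from 29.2% to 69.2% for cholesterol genes. Polycomb, H3K9 and CAF-1 barrier genes were higher with shDnmt1 for 17, 5, 17 and 22 of 30 members in the Vc-, Vc- Tet1CD, Vc+ and Vc+ Tet1CD pairs, with medians of 0.073, -0.14, 0.017 and 0.137. Genes of cholesterol synthesis and uptake were higher for 7 and 12 of 24 without vitamin C and 18 and 13 of 26 with it. Hypoxia-response genes were higher for 14 and 15 of 27 and for 15 and 10 of 30, ATF4 and unfolded protein response genes for 13 and 14 of 29 and for 17 and 16 of 31, and immediate early genes for 9 and 10 of 18 and for 12 and 11 of 19. None of these lists held a gene past the threshold in the 4-pair limma fit, and at an unadjusted p under 0.05 2 of 30 barrier genes and 2 of 27 hypoxia-response genes were higher, where 2.16% of all genes were.

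Genes listed at 0 in the shDnmt1 library and at 32 or more in its control numbered 5, 6, 9 and 32 in the 4 pairs, and 7, 7, 8 and 17 were listed at 0 in the control and at 32 or more with shDnmt1.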
